A study of Homo sapiens with 6 samples.

Results

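Phospholipid flippases and scramblases are membrane proteins that help set which side of a bilayer lipids such as phosphatidylserine and phosphatidylethanolamine (PE), the aminophospholipids, lie on. The genes described are 8 of the 19655 genes of the series, taken by symbol: the P4-ATPases ATP8B1, ATP9A, ATP9B, ATP11A and ATP11B, the flippase subunit gene TMEM30A, and the scramblase genes XKR8 and ANO6. All 8 were listed in every library and all 8 were among the 12756 genes tested. RNA-Seq covered 3 groups of 2 libraries of SW480, a human line established from a colorectal cancer. Cells carried a nontargeting hairpin (shNT) or a lentiviral hairpin against PCYT2, shPcyt2-1 or shPcyt2-2, and per the study's methods infected cells were selected with puromycin. Each knockdown group therefore is 1 hairpin in a selected population, and a hairpin's effects on PCYT2 and on other transcripts cannot be told apart within it. Nothing in the labels says that replicates came from separate cultures, so p-values measure the spread between these libraries, which may be technical. PCYT2 makes CDP-ethanolamine for PE synthesis, and the comparison asks how transcripts of the flippases and scramblases stood after its knockdown.

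P4-ATPases use ATP to flip lipids such as aminophospholipids from the outer to the cytoplasmic leaflet. Most P4-ATPases leave the endoplasmic reticulum only when bound to the CDC50 protein that TMEM30A encodes. ATP9A and ATP9B work in endosomes and the Golgi without a CDC50 partner. Scramblases move lipids both ways and collapse the asymmetry: ANO6 (TMEM16F) does so when calcium rises, and XKR8 in dying cells, which leaves phosphatidylserine on the surface as a signal for uptake.

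Of the 8 genes, RefSeq promoter windows (250 bases before to 50 bases after the start, GRCh38.p14) were matched for 5. Those of ATP11A and ATP9A, which passed the test with each hairpin, and of XKR8, which passed with neither, are printed 5′ to 3′, with capitals marking the GC box letters GGGCGG on either strand. ATP11A lies at chr13:112689788-112690087 (plus strand), ATP9A at chr20:51768341-51768640 (minus strand) and XKR8 at chr1:27959723-27960022 (plus strand).
ATP11A: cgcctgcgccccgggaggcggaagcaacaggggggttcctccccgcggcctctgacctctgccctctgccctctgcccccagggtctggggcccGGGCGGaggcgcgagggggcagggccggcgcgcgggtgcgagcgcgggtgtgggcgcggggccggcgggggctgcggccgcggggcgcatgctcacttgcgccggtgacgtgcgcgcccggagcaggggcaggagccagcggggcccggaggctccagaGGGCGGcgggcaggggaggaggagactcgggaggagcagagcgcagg
ATP9A: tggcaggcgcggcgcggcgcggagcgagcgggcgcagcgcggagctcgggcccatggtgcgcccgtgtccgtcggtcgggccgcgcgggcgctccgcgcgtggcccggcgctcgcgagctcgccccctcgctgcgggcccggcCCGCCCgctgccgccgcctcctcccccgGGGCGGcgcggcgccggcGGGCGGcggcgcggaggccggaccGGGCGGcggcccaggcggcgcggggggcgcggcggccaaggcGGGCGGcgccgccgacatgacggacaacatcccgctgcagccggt
XKR8: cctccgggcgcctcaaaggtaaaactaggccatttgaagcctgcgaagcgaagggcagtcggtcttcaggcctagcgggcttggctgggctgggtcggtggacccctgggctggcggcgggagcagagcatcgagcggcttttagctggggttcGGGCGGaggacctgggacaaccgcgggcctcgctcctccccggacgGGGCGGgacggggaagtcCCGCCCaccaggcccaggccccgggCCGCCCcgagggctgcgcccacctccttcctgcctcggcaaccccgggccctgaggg
GC made up 80.3% of the window for ATP11A, 86.3% for ATP9A and 72.3% for XKR8, against a median of 58.7% over all 35116 windows. Of the other matched windows, that of ATP9B had 70.3% GC and 4 matches to GGGCGG, and that of ANO6 had 35.7% GC and none. The ANO6 window (chr12:45292440-45292739, plus strand) surrounds a RefSeq start 76703 bases inside the gene as GENCODE 29 gives it, so it does not describe the first annotated start, whereas in the other 4 the starts were within 511 bases of each other. GGGCGG was found 2 times in ATP11A, 5 times in ATP9A and 4 times in XKR8, and is in 45% of all windows. GGAATG, a core of sites bound by the TEAD partners of YAP1, was in none of the 5 windows (14% of all), and CACCTG, an E-box bound by ZEB and SNAIL proteins, was in none (20.6% of all), so no match overlapped another motif. A match is a description of these letters and not of a bound site.

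Values were read as FPKM (fragments for each kilobase of a gene, adjusted for the size of its library), since the files do not name the unit. TPM over part of the genes would likewise be per length, so levels of different genes can be compared per length. The depth in reads is unknown. The reciprocal of the most common low value was taken as a rough guide to depth, which was not checked. This reciprocal was lowest for shPcyt2-1 replicate 1 (5.26) and highest for shNT replicate 1 (6.89), with the 3 groups overlapping. Tests were made with limma on log2(FPKM + 1) with Benjamini-Hochberg adjustment over all 12756 genes, and called means an adjusted p under 0.05. A fold change on this scale understates the change of low genes.

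The shPcyt2-2 libraries differed from each other mostly in 1 direction, which bears on what follows. shPcyt2-2 replicate 1 was above replicate 2 in 70.2% of the tested genes, against 49.8% for shNT and 56.1% for shPcyt2-1, where replicate 1 is likewise set against replicate 2. Of the 8 genes, 7 were higher in shPcyt2-2 replicate 1, with a median log2 difference of 0.20, and XKR8 was the exception. The shPcyt2-2 pair correlated over genes at 0.994, beside 0.993 for shNT and 0.995 for shPcyt2-1. Which of the shPcyt2-2 libraries is the unusual one was not tested. Values of the 8 genes and calls that rest on shPcyt2-2 are also given without shPcyt2-2 replicate 1.

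PCYT2 was at 11.6 and 13.8 FPKM in the shNT libraries, 7.11 and 7.36 FPKM with shPcyt2-1, and 6.71 and 6.18 FPKM with shPcyt2-2. No knockdown library reached the lower shNT library. It fell by 0.73 with shPcyt2-1 (log2 scale, standard error 0.10, limma adjusted p = 0.00205) and by 0.88 with shPcyt2-2 (standard error 0.10, limma adjusted p = 0.00261), and both calls held with each library left out. Of its annotated exonic bases 28.1% are shared with genes on the opposite strand (NPB and ANAPC11), and whether counting used strand is not given in the sources used here. The cells had epithelial transcripts, with EPCAM between 258 and 312 FPKM and KRT8 between 2734 and 3861 FPKM. PTPRC (leukocytes) was not listed, and COL1A2 (fibroblasts) was not listed in 4 of 6 libraries. Of 6 epithelial markers, 1 was called with shPcyt2-1 (CDX2, lower, limma adjusted p = 0.00138) and 2 with shPcyt2-2 (KRT8 and KRT18, both lower, limma adjusted p = 0.00483 and 0.00319), where 26.7% and 12.4% of all tested genes were called. Without shPcyt2-2 replicate 1 neither keratin was called with that hairpin (-0.38 for KRT8, limma adjusted p = 0.0652, and -0.41 for KRT18, 0.0528). Between the hairpins 3 of the 6 were called, CDX2 (0.60 higher with shPcyt2-2 on the log2 scale), KRT8 (-0.36) and KRT18 (-0.47), where 27.1% of tested genes were. These 3 were also called without shPcyt2-2 replicate 1, at 0.56, -0.32 and -0.44. Of 4 fibroblast markers 2 were tested, COL1A1, the most abundant in shNT, and LUM, the most abundant with shPcyt2-1. LUM passed with shPcyt2-1 (limma adjusted p = 0.00192), and was at 0.789 and 0.863 FPKM with shNT, 2.17 and 2.24 FPKM with shPcyt2-1 and 1.37 and 1.09 FPKM with shPcyt2-2. It was also called between the hairpins, at -0.53 (log2 scale, limma adjusted p = 0.00838). The LUM difference was -0.62 without shPcyt2-2 replicate 1. The 4 markers summed to 1.88 and 1.94 FPKM with shNT, 3.39 and 3.79 FPKM with shPcyt2-1 and 2.99 and 2.82 FPKM with shPcyt2-2, and their part in the results was not tested. The 3 leukocyte markers summed to between 16.0 and 22.7 FPKM, nearly all of it CD68, and the 3 endothelial markers to between 0.513 and 0.769 FPKM with CDH5 the most abundant. Of these 2 lists only CD68 was abundant enough to be tested, and it was not called. In bulk libraries, fewer cells with a transcript and less of it per cell cannot be told apart.

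In control cells the 8 genes were ordered without overlap between neighbors. ATP9A was highest at 15.3 ± 0.480 FPKM (SD, n = 2), above 70.1% of tested genes. ATP11A followed at 14.3 ± 0.144 FPKM (SD, n = 2), TMEM30A at 10.4 ± 0.146 FPKM (SD, n = 2) and ANO6 at 7.69 ± 0.296 FPKM (SD, n = 2). ATP11B was at 5.55 ± 0.348 FPKM (SD, n = 2), XKR8 at 2.65 ± 0.101 FPKM (SD, n = 2) and ATP9B at 1.63 ± 0.0363 FPKM (SD, n = 2). ATP8B1, which is best known as the flippase mutated in familial intrahepatic cholestasis, was lowest at 0.624 ± 0.00965 FPKM (SD, n = 2), above only 3.15% of tested genes. With shPcyt2-1, ATP11A lay above ATP9A in every library, and with shPcyt2-2 the libraries of these 2 genes overlapped. The order of the other 6 genes was the same in all 3 groups, and no other neighbors overlapped.

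**Figure D1:**
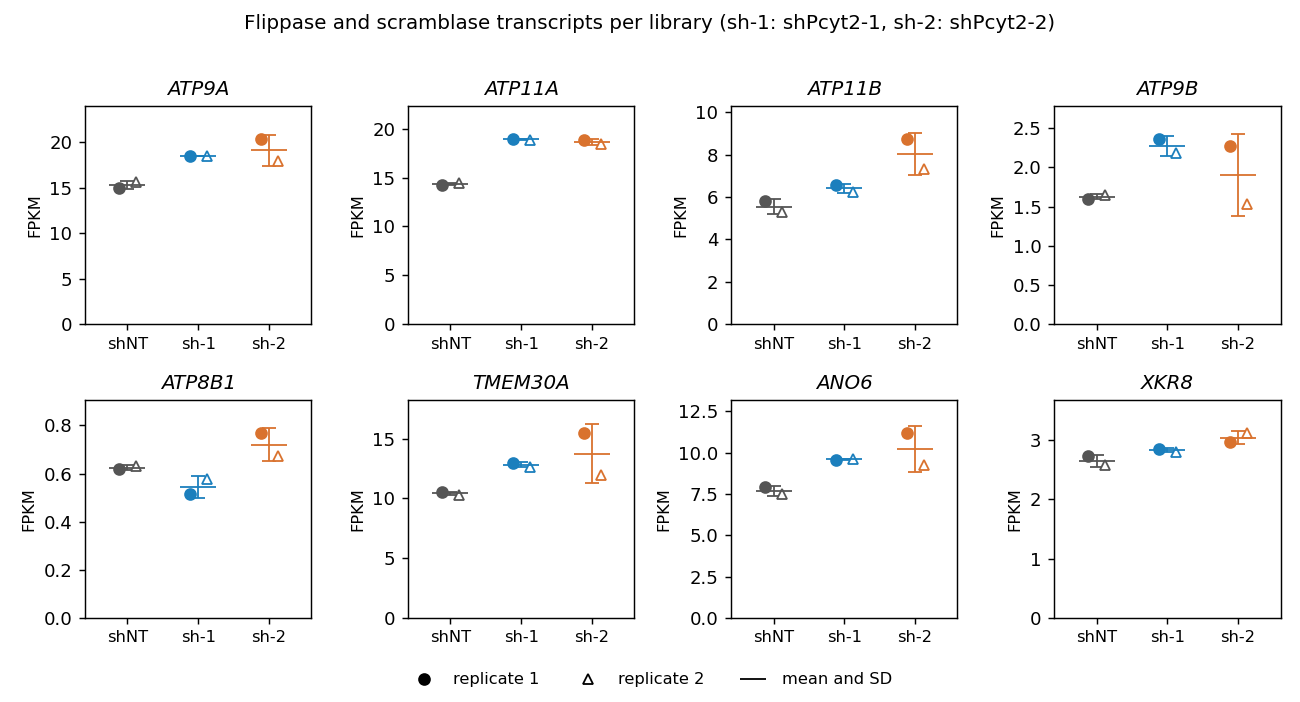
FPKM (linear axis from 0) of the 8 genes in each library of shNT, shPcyt2-1 (sh-1) and shPcyt2-2 (sh-2). Circles are replicate 1, triangles replicate 2, and the horizontal line with its bar is the mean and SD of 2 libraries. ATP11A shows tight replicates at 18.4 to 18.9 FPKM in the knockdown libraries against 14.2 and 14.4 FPKM in shNT, whereas TMEM30A, ANO6 and ATP9B spread between the shPcyt2-2 replicates.

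After knockdown, most of the 8 transcripts lay above control by small amounts. With shPcyt2-1, 2 of the 8 were called, ATP9A and ATP11A, both higher. Among all tested genes 26.7% were called in this comparison, 16.5% higher and 10.1% lower, so a share of 2 in 8 (25.0%) is near the background. With shPcyt2-2, 4 of the 8 were called, ATP9A, ATP11A, ATP11B and ANO6, all higher, where 12.4% of tested genes were called, 7.69% higher and 4.74% lower. The median log2 fold change of the 8 was 0.27 with shPcyt2-1 and 0.33 with shPcyt2-2, beside 0.067 and 0.044 over all tested genes. The median with shPcyt2-2 was 0.20 without shPcyt2-2 replicate 1, beside 0.0082 over all tested genes, and 0.38 without replicate 2, beside 0.0815. Without shPcyt2-2 replicate 1, none of the 8 was called with shPcyt2-2, when 0.980% of tested genes were, and without shNT replicate 2 again none was, with 3.16% of tested genes called. Without shPcyt2-1 replicate 1, none of the 8 was called with that hairpin, with 8.99% of tested genes called. It gave 1 call of the 8 without shPcyt2-1 replicate 2 (14.3% of tested genes called), shNT replicate 2 (13.6%) or shNT replicate 1 (24.1%), and 5 without either shPcyt2-2 library (25.5% each). shPcyt2-2 gave 2 without shNT replicate 1 (14.8%), shPcyt2-1 replicate 1 (9.96%) or shPcyt2-1 replicate 2 (9.86%), and 3 without shPcyt2-2 replicate 2 (4.41%). Both hairpins are compared with the same shNT libraries, so their values are set side by side and are not independent.

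In the order of libraries, 7 of the 8 genes had both shPcyt2-1 libraries above both shNT libraries, as 43.3% of tested genes did, and ATP8B1 had both below, as 25.6% did. With shPcyt2-2, 7 of the 8 had both libraries above both shNT libraries, as 35.1% of tested genes did, none had both below, as 22.4% did, and ATP9B overlapped. Pooling both hairpins into a single knockdown group, a choice made here since the study's methods speak only of knockdown and control, 0 of the 8 were called by limma where 0.00784% of tested genes were called, and 5 of the 8 had an unadjusted p under 0.05, as 16.7% of tested genes did. PCYT2 itself was not called in this pooled fit (-0.80, limma adjusted p = 0.115), which counts a difference between the hairpins as spread. The 0 of the 8 therefore does not show an absence of change. Averaging the hairpin estimates of the fit with 3 groups instead gave 4 called of the 8, all higher, beside 16.8% of tested genes. PCYT2 was called there (limma adjusted p = 0.00334).

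ATP11A, a plasma membrane flippase for phosphatidylserine and PE, gave the most uniform values. It was at 14.2 and 14.4 FPKM with shNT, 18.9 and 18.9 FPKM with shPcyt2-1, and 18.8 and 18.4 FPKM with shPcyt2-2. No knockdown library came near the shNT libraries, and the means were 1.32 and 1.30 times that of shNT. limma put the log2 difference from shNT at 0.38 for shPcyt2-1 (standard error 0.071, adjusted p = 0.00664) and at 0.35 for shPcyt2-2 (standard error 0.071, adjusted p = 0.0169). With shPcyt2-1 the call was lost without shPcyt2-1 replicate 1 (limma adjusted p = 0.0575). With shPcyt2-2 it was lost without shNT replicate 2 (0.0558), shPcyt2-2 replicate 1 (0.104) or shPcyt2-2 replicate 2 (0.0583), and without the expression limit (0.0535), while the fold change stayed between 0.34 and 0.37 with any library left out. The gene (ENSG00000068650) lies on chromosome 13 of GRCh38 at 112690329 to 112887168 (plus strand), and no gene on the opposite strand shares its exonic bases.

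ATP9A, which acts on endosomal recycling, was at 14.98 and 15.66 FPKM with shNT, 18.5 and 18.5 FPKM with shPcyt2-1, and 20.3 and 17.9 FPKM with shPcyt2-2. All 4 knockdown libraries lay above both shNT libraries. limma put the log2 difference from shNT at 0.26 for shPcyt2-1 (standard error 0.082, adjusted p = 0.0466) and at 0.30 for shPcyt2-2 (standard error 0.082, adjusted p = 0.0451), so both calls lay close to the threshold. With shPcyt2-1 the call was lost without shNT replicate 1 (limma adjusted p = 0.121), shNT replicate 2 (0.0864), shPcyt2-1 replicate 1 (0.190) or shPcyt2-1 replicate 2 (0.168). With shPcyt2-2 it was lost whichever library was left out (limma adjusted p from 0.0558 without shPcyt2-2 replicate 2 to 0.221 without shPcyt2-2 replicate 1, where the value was 0.21), and with median-ratio scaling it was lost for both hairpins (0.0941 and 0.0530). ATP9A (ENSG00000054793) lies on chromosome 20 at 51596514 to 51768634 (minus strand).

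ATP11B, an endosomal flippase, had the largest fold change of the 8 genes with shPcyt2-2, though not after correction for GC content and length. It was at 5.80 and 5.30 FPKM with shNT, 6.56 and 6.25 FPKM with shPcyt2-1, and 8.72 and 7.31 FPKM with shPcyt2-2. Each group lay above the one before it without overlap. limma put the log2 difference from shNT at 0.46 for shPcyt2-2 (standard error 0.10, adjusted p = 0.0256) and at 0.18 for shPcyt2-1 (standard error 0.10, adjusted p = 0.229). With shPcyt2-2 it was 0.34 without shPcyt2-2 replicate 1 (limma adjusted p = 0.147) and 0.40 without shNT replicate 2 (limma adjusted p = 0.128), and passed without each other library. After that correction it was 0.30 with shPcyt2-2 (0.0407), below ATP11A at 0.36, and 0.045 with shPcyt2-1 (0.691). The tested genes with the profile most like that of ATP11B over the 6 libraries were CDK17 (Pearson's r = 0.997), ERO1B (r = 0.997) and ATP13A3 (r = 0.996), which share these libraries, so the values are descriptive. ATP13A3, a P-type ATPase outside the flippase family, was at 11.8 and 10.5 FPKM with shNT, 13.7 and 13.6 FPKM with shPcyt2-1, and 20.1 and 16.4 FPKM with shPcyt2-2.

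ANO6 was at 7.90 and 7.48 FPKM with shNT, 9.59 and 9.63 FPKM with shPcyt2-1, and 11.2 and 9.26 FPKM with shPcyt2-2. Both knockdown groups lay above shNT without overlap. limma put the log2 difference from shNT at 0.37 for shPcyt2-2 (standard error 0.10, adjusted p = 0.0461) and at 0.29 for shPcyt2-1 (standard error 0.10, adjusted p = 0.0613). With shPcyt2-2 the value was 0.24 without shPcyt2-2 replicate 1 (limma adjusted p = 0.219), and the call was also lost without shNT replicate 1 (0.0656), shNT replicate 2 (0.181), shPcyt2-1 replicate 1 (0.0625) or shPcyt2-1 replicate 2 (0.0630), and after correction for GC content and length (0.0641). With shPcyt2-1 it passed without shPcyt2-2 replicate 1 (0.0397) or replicate 2 (0.0397), and after correction for GC content and length it was 0.19 (0.104).

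TMEM30A, the shared subunit, was at 10.5 and 10.3 FPKM with shNT, 13.0 and 12.7 FPKM with shPcyt2-1, and 15.5 and 11.99 FPKM with shPcyt2-2. All 4 knockdown libraries were above shNT, but the shPcyt2-2 replicates were far apart. limma put the log2 difference from shNT at 0.28 for shPcyt2-1 (standard error 0.11, adjusted p = 0.0931) and at 0.36 for shPcyt2-2 (standard error 0.11, adjusted p = 0.0646), so neither passed. Leaving out shPcyt2-2 replicate 1 gave 0.19 for that hairpin (limma adjusted p = 0.289), and leaving out its replicate 2 gave 0.53 (0.0381). With shPcyt2-1 it passed without shPcyt2-2 replicate 1 (limma adjusted p = 0.0375) or replicate 2 (0.0370), where the unequal shPcyt2-2 pair no longer enters the spread. After correction for GC content and length the values were 0.13 with shPcyt2-1 (0.342) and 0.20 with shPcyt2-2 (0.217). With the replicate number as a block TMEM30A passed with shPcyt2-2 (limma adjusted p = 0.0478).

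The other 3 genes passed with neither hairpin. ATP9B was at 1.60 and 1.65 FPKM with shNT, 2.36 and 2.18 FPKM with shPcyt2-1, and 2.27 and 1.53 FPKM with shPcyt2-2. Its shPcyt2-1 libraries were both above shNT while the shPcyt2-2 libraries lay on either side of it. limma put the log2 difference from shNT at 0.32 for shPcyt2-1 (adjusted p = 0.106) and at 0.13 for shPcyt2-2 (adjusted p = 0.531), which became -0.052 without shPcyt2-2 replicate 1. With shPcyt2-1 it passed without shPcyt2-2 replicate 1 (0.0480) or replicate 2 (0.0478). After correction for GC content and length ATP9B was at 0.24 with shPcyt2-1 and 0.061 with shPcyt2-2.

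XKR8 was at 2.72 and 2.58 FPKM with shNT, 2.85 and 2.80 FPKM with shPcyt2-1, and 2.96 and 3.12 FPKM with shPcyt2-2. The groups did not overlap, and the steps between them were small. The log2 fold change was 0.067 with shPcyt2-1 (95% interval -0.15 to 0.29, limma adjusted p = 0.637) and 0.15 with shPcyt2-2 (95% interval -0.076 to 0.37, limma adjusted p = 0.339), or 0.17 without shPcyt2-2 replicate 1 (0.399). Correction for GC content and length raised these to 0.22 (0.106) and 0.27 (0.0953), and median-ratio scaling put the first at 0.0084. The shPcyt2-1 value was 0.039 without shNT replicate 2 and 0.095 without shNT replicate 1.

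ATP8B1 was at 0.618 and 0.631 FPKM with shNT, 0.513 and 0.578 FPKM with shPcyt2-1, and 0.769 and 0.672 FPKM with shPcyt2-2. It was the only one of the 8 that lay below shNT with shPcyt2-1. The log2 fold changes were -0.072 (95% interval -0.31 to 0.17, limma adjusted p = 0.640) and 0.082 (95% interval -0.16 to 0.32, limma adjusted p = 0.632), the second being 0.042 without shPcyt2-2 replicate 1 (0.864). After correction for GC content and length they were -0.15 and 0.0086.

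The other 6 genes lie as follows in GRCh38 (GENCODE 29). ATP11B (ENSG00000058063) is on chromosome 3 at 182793500 to 182921635 (plus strand), ANO6 (ENSG00000177119) on chromosome 12 at 45215987 to 45440404 (plus strand) and TMEM30A (ENSG00000112697) on chromosome 6 at 75252924 to 75284968 (minus strand). XKR8 (ENSG00000158156) is on chromosome 1 at 27959462 to 27968096 (plus strand). ATP8B1 (ENSG00000081923) and ATP9B (ENSG00000166377) are both on chromosome 18, at 57646426 to 57803315 (minus strand) and 79069285 to 79378287 (plus strand). Genes on the opposite strand share 4.52% of the exonic bases of ATP8B1, 4.87% of ATP9B, 4.31% of ATP11B, 1.24% of XKR8 and 0.67% of ANO6, so reads there could belong to either gene if strand was not used.

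**Figure D2:**
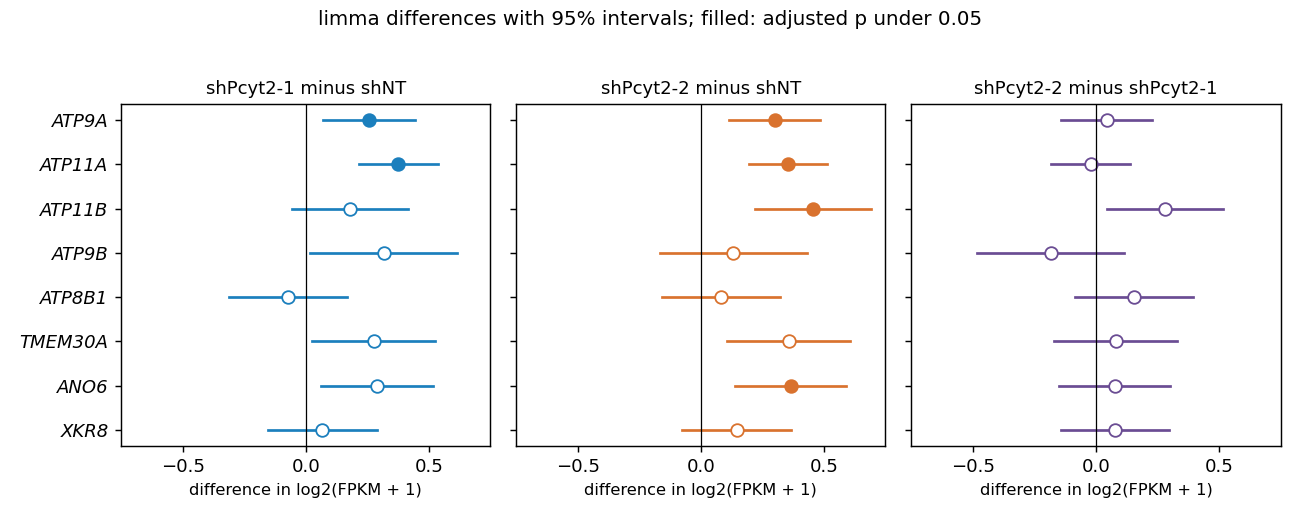
Differences in log2(FPKM + 1) from limma for the 8 genes, with 95% intervals, for each hairpin against shNT and for shPcyt2-2 against shPcyt2-1. Filled points have an adjusted p under 0.05: ATP9A and ATP11A with shPcyt2-1, these and ATP11B and ANO6 with shPcyt2-2, and none between the hairpins.

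Between the hairpins, 0 of the 8 genes were called by limma, where 27.1% of tested genes were, and 1 of the 8, ATP11B, had an unadjusted p under 0.05, as 40.2% of tested genes did. Both shPcyt2-2 libraries lay above both shPcyt2-1 libraries for 3 of the 8, as for 30.7% of tested genes, and below them for ATP11A, as for 36.5%. For ATP11B the difference, shPcyt2-2 minus shPcyt2-1, was 0.28 (95% interval 0.043 to 0.52, limma adjusted p = 0.0767). Without shPcyt2-2 replicate 1 it was 0.17 (limma adjusted p = 0.308) and without shPcyt2-1 replicate 2 it was 0.25 (0.279), while it passed with median-ratio scaling (0.0347) and after correction for GC content and length (0.0339). For ATP11A the difference was -0.021 (95% interval -0.18 to 0.14), which is the narrowest interval of the 8, and for ATP9A it was 0.044 (95% interval -0.14 to 0.23). The widest interval was that of ATP9B, from -0.48 to 0.12 around a difference of -0.18. Without shPcyt2-2 replicate 1 the difference was -0.038 for ATP11A, -0.042 for ATP9A and -0.37 for ATP9B (limma adjusted p = 0.0682 for the last). It then also lay below 0 for TMEM30A (-0.091) and ANO6 (-0.049). These intervals do not show that the hairpins act alike.

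The 13 P4-ATPase genes analysed, of which 8 are outside the group described, were summed in each library. The sum was 41.1 and 41.8 FPKM with shNT, 51.8 and 50.6 FPKM with shPcyt2-1, and 56.4 and 50.7 FPKM with shPcyt2-2. Every knockdown library was above both shNT libraries, although an exact two-sided permutation test of 2 against 2 libraries cannot give a p below 0.333. ATP9A and ATP11A together made up between 69.4% and 73.9% of the sum. The 11 of these P4-ATPases other than ATP9A and ATP9B, set against TMEM30A, gave a ratio of 2.33 and 2.37 with shNT, 2.38 and 2.36 with shPcyt2-1, and 2.185 and 2.602 with shPcyt2-2. This ratio of flippase to subunit transcripts overlapped between the shNT and shPcyt2-1 libraries, and the shPcyt2-2 replicates fell on either side of both. Set against the summed TMEM30A and TMEM30B (FPKM), the same 11 genes gave 1.569 and 1.572 with shNT, 1.66 and 1.64 with shPcyt2-1, and 1.79 and 2.033 with shPcyt2-2. On that base the 3 groups did not overlap, with shNT lowest and shPcyt2-2 highest. The group means had the same order against TMEM30A alone (2.35, 2.37 and 2.39). Counting TMEM30B therefore changed whether the libraries overlapped, and not the order of the means.

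**Figure D3:**
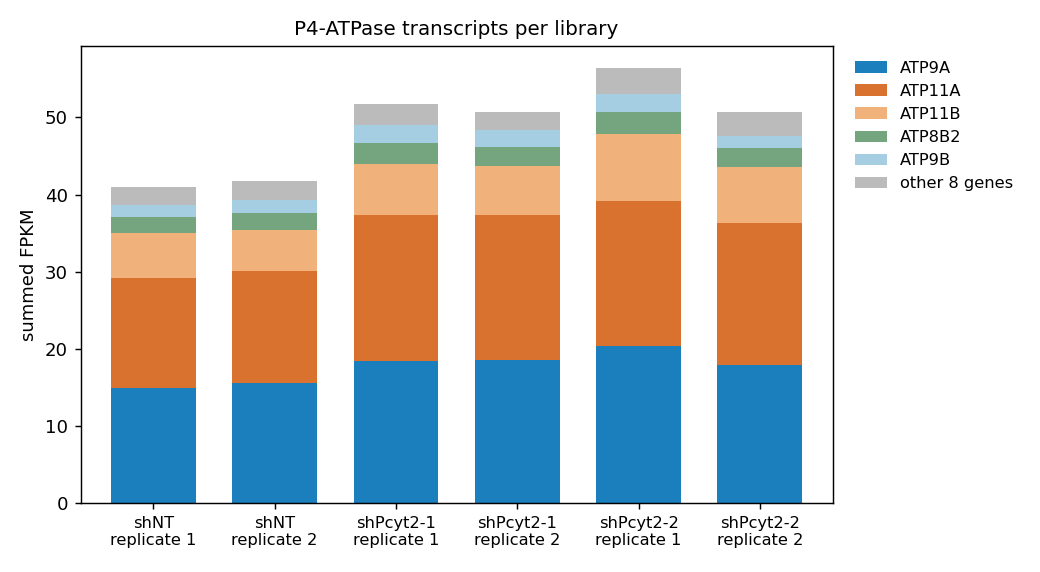
Summed FPKM (stacked bars from 0) of the 13 P4-ATPase genes analysed in each library, by gene. ATP9A (blue) and ATP11A (orange) fill most of each bar, and the total goes from 41.1 and 41.8 FPKM in shNT to between 50.6 and 56.4 FPKM in the knockdown libraries.

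A wider list of 51 genes for lipid transport across and between membranes included 32 that were tested. With shPcyt2-1, 7 of the 32 were called (21.9%), 6 higher and 1 lower, and with shPcyt2-2 3 of the 32 (9.38%), 1 higher and 2 lower, beside the 26.7% and 12.4% of all tested genes. Their median log2 fold change was 0.16 and 0.12. Between the hairpins 7 of the 32 were called (21.9%), 2 higher and 5 lower with shPcyt2-2, beside 27.1% of all tested genes.

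Among the other P4-ATPases analysed, 3 of 8 were tested. ATP8B3 was at 0.742 and 0.732 FPKM with shNT, 0.483 and 0.291 FPKM with shPcyt2-1, and 0.944 and 1.203 FPKM with shPcyt2-2, so its hairpin groups lay on opposite sides of shNT. Their own difference, shPcyt2-2 minus shPcyt2-1, came to 0.58 (log2 scale, limma adjusted p = 0.00818), and 0.48 without shPcyt2-1 replicate 2 (0.0572).

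TMEM30B, the CDC50 paralog of TMEM30A, moved apart between the hairpins. It was at 5.08 and 5.26 FPKM with shNT, 5.65 and 5.55 FPKM with shPcyt2-1, and 3.41 and 3.35 FPKM with shPcyt2-2. limma put the log2 difference from shNT at -0.49 for shPcyt2-2 (standard error 0.091, adjusted p = 0.0136) and at 0.097 for shPcyt2-1 (adjusted p = 0.453), and the difference of -0.59 was called (limma adjusted p = 0.00214), also with each library left out. The fall with shPcyt2-2 was not called without shNT replicate 2 (0.0714), shPcyt2-2 replicate 1 (0.0812) or shPcyt2-2 replicate 2 (0.0524).

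Of the other scramblase families, XK, which works with the lipid transfer protein VPS13A, was at 2.87 and 2.99 FPKM with shNT, 4.64 and 4.10 FPKM with shPcyt2-1, and 3.79 and 3.28 FPKM with shPcyt2-2. It rose by 0.45 with shPcyt2-1 (log2 scale, limma adjusted p = 0.0166), a call lost without shNT replicate 1 (0.0571), shNT replicate 2 (0.0590) or shPcyt2-1 replicate 1 (0.143). Its log2 fold change with shPcyt2-2 was 0.20 (limma adjusted p = 0.227), or 0.12 without shPcyt2-2 replicate 1 (0.578) and 0.10 after correction for GC content and length (0.503). Of 9 TMEM16 genes other than ANO6, 5 were tested. ANO1, a calcium-activated chloride channel, was the highest, at 31.8 and 31.9 FPKM with shNT, 24.0 and 26.4 FPKM with shPcyt2-1, and 25.7 and 25.4 FPKM with shPcyt2-2. ANO1 fell by 0.33 with shPcyt2-1 (log2 scale, limma adjusted p = 0.0125) and by 0.31 with shPcyt2-2 (limma adjusted p = 0.0282), opposite in sign to ANO6. With shPcyt2-1 the ANO1 call was lost without shPcyt2-1 replicate 1 (0.136), and with shPcyt2-2 without shNT replicate 2 (0.0933), shPcyt2-2 replicate 1 (0.131) or replicate 2 (0.0921).

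ANO7 was at 0.763 and 0.711 FPKM with shNT, 1.28 and 1.29 FPKM with shPcyt2-1, and 0.568 and 0.642 FPKM with shPcyt2-2. It rose by 0.39 with shPcyt2-1 (log2 scale, limma adjusted p = 0.0239), which was lost whichever shNT or shPcyt2-1 library was left out (0.0588 to 0.125), and shPcyt2-2 minus shPcyt2-1 came to -0.51 (log2 scale, limma adjusted p = 0.00759). ANO8 differed between the hairpins by -0.35 (limma adjusted p = 0.0301), which did not pass whichever shPcyt2-1 or shPcyt2-2 library was left out (0.0643 to 0.159). Of the PLSCR family, once named as scramblases, 2 of 5 were tested and none was called. The higher, PLSCR3, was at 9.48 and 7.82 FPKM with shNT, between 9.76 and 9.79 FPKM with shPcyt2-1, and 9.25 and 8.59 FPKM with shPcyt2-2.

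Scramblases of internal membranes were all tested. VMP1, an endoplasmic reticulum scramblase needed for autophagy, was at 15.5 and 15.2 FPKM with shNT, 21.1 and 20.8 FPKM with shPcyt2-1, and 18.6 and 17.7 FPKM with shPcyt2-2. It rose by 0.43 with shPcyt2-1 (log2 scale, limma adjusted p = 0.00432), and its log2 fold change with shPcyt2-2 was 0.23 (limma adjusted p = 0.0660), or 0.20 without shPcyt2-2 replicate 1 (0.240) and 0.083 after correction for GC content and length (0.389). ATG9A, the scramblase of autophagosome precursors, was at 18.6 and 19.9 FPKM with shNT, 26.8 and 26.7 FPKM with shPcyt2-1, and 21.7 and 20.3 FPKM with shPcyt2-2. It rose by 0.46 with shPcyt2-1 (log2 scale, limma adjusted p = 0.00379), and shPcyt2-2 minus shPcyt2-1 came to -0.34 (log2 scale, limma adjusted p = 0.0104), lost without shPcyt2-1 replicate 1 (0.0694), shPcyt2-1 replicate 2 (0.0588) or shPcyt2-2 replicate 2 (0.0685). The rises of VMP1 and ATG9A with shPcyt2-1 were called with each library left out. TMEM41B and CLPTM1L were called in no comparison.

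Of 6 genes for bridge-like lipid transfer, none was called with either hairpin, and 2 had an unadjusted p under 0.05 with each, as 40.9% and 31.1% of all tested genes did. ATG2A differed between the hairpins, at 15.4 and 16.4 FPKM with shPcyt2-1 and 20.03 and 19.06 FPKM with shPcyt2-2 beside 15.7 and 18.0 FPKM with shNT. The difference was 0.28 (limma adjusted p = 0.0390), and it did not pass whichever shPcyt2-1 or shPcyt2-2 library was left out (0.0887 to 0.219). Of 7 ABC exporters, which move lipids to the outer leaflet, 6 were tested and 1 was called with shPcyt2-1. ABCC1 rose there by 0.40 (log2 scale, limma adjusted p = 0.0134), from 7.33 and 6.98 FPKM to 9.31 and 10.3 FPKM, and was at 7.35 and 6.88 FPKM with shPcyt2-2. The rise was lost without shNT replicate 2 (0.0616) or shPcyt2-1 replicate 2 (0.107). Their own difference, shPcyt2-2 minus shPcyt2-1, came to -0.41 (log2 scale, limma adjusted p = 0.0106), lost without shPcyt2-1 replicate 2 (0.0992) or shPcyt2-2 replicate 2 (0.0627).

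The 4 genes for partners of XKR8 and ATP9A were all tested. BSG and NPTN encode the chaperones that take XKR8 to the plasma membrane. BSG was by far the more abundant, between 230.4 and 253.6 FPKM over the 6 libraries, and was called in no comparison. NPTN was at 25.9 and 25.0 FPKM with shNT, 28.8 and 31.2 FPKM with shPcyt2-1, and 33.0 and 31.0 FPKM with shPcyt2-2. It rose by 0.23 with shPcyt2-1 (log2 scale, limma adjusted p = 0.0448), a call lost whichever library was left out (0.0567 to 0.273), and by 0.32 with shPcyt2-2 (limma adjusted p = 0.0254), lost without shNT replicate 2 (0.0993), shPcyt2-2 replicate 1 (0.151) or replicate 2 (0.0622). Median-ratio scaling put NPTN at 0.15 with shPcyt2-1 (0.146). MON2 and DOP1B, partners of ATP9A in endosomal sorting, were not called.

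Of the 7 genes of the wider list called between the hairpins, 5 were also called without shPcyt2-2 replicate 1, with differences of -0.60 for TMEM30B, 0.67 for ATP8B3, -0.48 for ANO7, -0.45 for ABCC1 and -0.38 for ATG9A, and ANO8 (-0.32) and ATG2A (0.25) were not. Some calls turned on other choices. Without the expression limit, none of the 7 transport genes called with shPcyt2-2 passed (limma adjusted p from 0.0535 for ATP11A to 0.125 for ANO6), and with shPcyt2-1 ATP9A (0.0888), NPTN (0.0762) and XK (0.0618) did not. Nor did ANO8 (limma adjusted p = 0.0612) and ATG2A (0.0862) between the hairpins under this setting. Without a variance trend in limma, ATP9A did not pass with either hairpin (adjusted p = 0.0688 and 0.0729), nor did NPTN (0.0798 and 0.0575), and with shPcyt2-2 ANO6 (0.0638) and ANO1 (0.0605) did not. ATG2A then did not pass between the hairpins (0.0608). After correction for GC content and length, ANO8 passed with shPcyt2-1 (0.36 on the log2 scale, limma adjusted p = 0.0205) and ATG2A with shPcyt2-2 (0.33, 0.0146), and VMP1 did between the hairpins (-0.21, 0.0310), while NPTN no longer passed with shPcyt2-1 (0.17, 0.0832). The same correction moved uncalled shPcyt2-2 values of ANO8 to -0.074 (0.607), ANO7 to -0.0083 (0.967) and ATG9A to 0.22 (0.0594), and that of ATP8B3 with shPcyt2-1 to -0.20 (0.263).

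**Figure D4:**
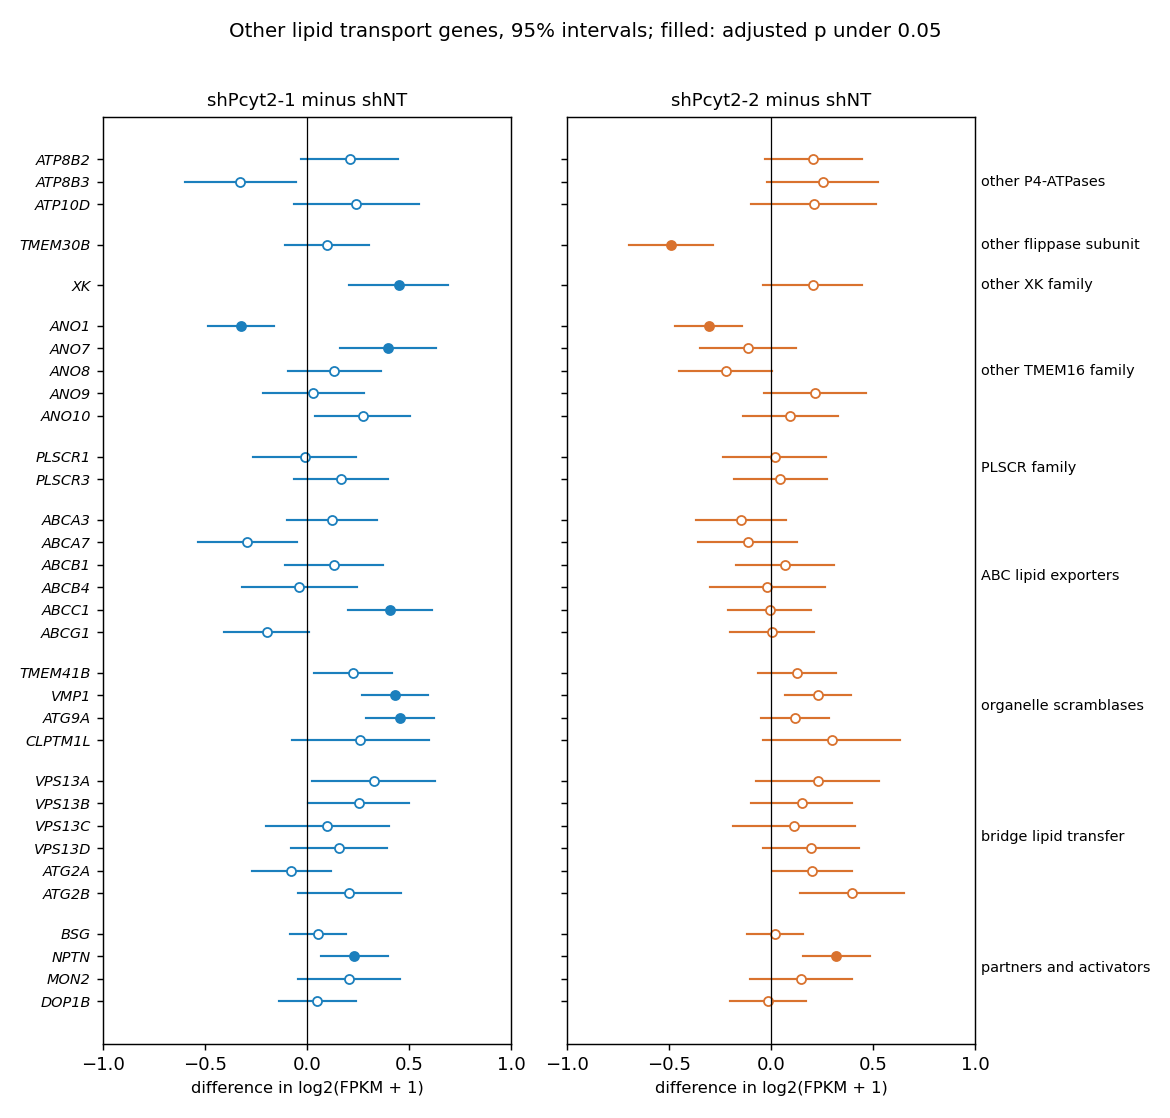
Differences in log2(FPKM + 1) from limma with 95% intervals for the 32 tested genes of the wider list, by family, for shPcyt2-1 and shPcyt2-2 against shNT. Filled points have an adjusted p under 0.05. TMEM30B lies to the left with shPcyt2-2 at -0.49, ANO1 lies to the left in both panels and NPTN to the right in both.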

How the data were processed

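The authors deposited 1 table per library with a value per Ensembl gene, read here as FPKM from the values, which are not whole and sum to between 396467 and 402612. TPM over part of the genes cannot be told apart from this. Aligner, counter and annotation are not given in the sources used here, and the submitters' processing notes name GRCh38 beside GRCm38 and mm10. Of the 2 library kits in the labels, neither is tied to a library. Repeated rows were summed. Identifiers with identical values in all 6 libraries were merged if they were detected in at least 2 of them. Of 21539 identifiers, 90.6% matched GENCODE 29 (GRCh38), the source of names and positions. Genes with a mean of at least 0.5 FPKM were tested with limma 3.58.1 (R 4.3.3) on log2(FPKM + 1) in a fit with 3 groups and a trend of variance on level. The pooled knockdown had a fit with 2 groups. The study's own test needs counts, which these values are not. The procedure was tested on simulated data. Alternatives covered the pseudocount, expression limit, scaling, replicate block, variance trend, GC content and length, and each library left out. The 8 genes and all lists were chosen with earlier results of these data known. Genes named are the 8, PCYT2, every gene of the lists called with a hairpin or between hairpins, the highest gene of a list with none, and the 3 genes closest in profile to the member with the largest called change. A few genes of the lists are not reported here. Others are named only for a level or the absence of a call. Figures used matplotlib 3.10.9.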

Additional observations from a re-analysis of the deposited data

Results flagged for a closer look

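ATP11A was marked because 1 of its 4 knockdown libraries, shPcyt2-2 replicate 2 at 18.4 FPKM, lay apart from the other 3, with a gap of 0.859 of their range. That range is narrow, from 18.4 to 18.9 FPKM. Chance marks about 1 in 20 such groups, and 1 of 20 was marked here.

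The other marked results are differences between the hairpins (shPcyt2-2 minus shPcyt2-1, log2 scale) with a limma adjusted p under 0.05, all in genes outside the 8. They were 0.581 for ATP8B3, -0.59 for TMEM30B, -0.509 for ANO7, -0.354 for ANO8, -0.411 for ABCC1, -0.336 for ATG9A and 0.282 for ATG2A. No explanation was tested for any of them.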

How the results depend on the processing

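Of 420 values for the 8 genes in 4 comparisons under the alternatives, 361 kept their direction and side of the threshold, 32 lost a call, 16 gained one and 11 changed sign. The cause of these changes was not tested. Only ATP9A and ATP11A with each hairpin, and ATP11B and ANO6 with shPcyt2-2, were called in the main fit. All 32 losses fell on these, and most of the 420 values belonged to results that were not called. The 361 therefore does not measure how far the calls held. With shPcyt2-1, where 2 of the 8 genes were called, 1 was without the expression limit, with median-ratio scaling and without a variance trend, and from 0 to 5 with each library left out. With shPcyt2-2, where 4 were called, 0 were without the expression limit (19655 genes tested, 0.631% called), 2 without a variance trend, and from 0 to 3 with each library left out. Between the hairpins, where 0 were called, 1 was (ATP11B) with median-ratio scaling, with the replicate block and after correction for GC content and length. The pooled comparison, where PCYT2 was not called either, gave 0, and 4 as the mean of the hairpins in the fit with 3 groups. Over all genes, shPcyt2-1 gave 3400 calls, 1844 without the expression limit, and from 1147 to 3256 with a library left out. shPcyt2-2 gave 1585, 124 without the expression limit, 1027 without a variance trend, and from 125 to 1893. The hairpin difference gave 3463 and from 1662 to 3785 with a library left out. Median-ratio scaling turned the split of 2109 higher and 1291 lower with shPcyt2-1 into 1422 and 1758, and that of 981 and 604 with shPcyt2-2 into 763 and 879.

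The labels do not say whether libraries of the same replicate number belong together, and the main fit did not pair them. The differences between replicates correlated across genes by 0.0027 (shNT and shPcyt2-1), 0.062 (shNT and shPcyt2-2) and 0.19 (shPcyt2-1 and shPcyt2-2). The correlation was thus highest between the knockdown groups, and its source was not tested. With the replicate number as a block, 3 of the 8 genes were called with shPcyt2-1, 5 with shPcyt2-2 and 1 between the hairpins, and 3884, 2029 and 3869 genes in all. The genes gained were ANO6 with shPcyt2-1 (limma adjusted p = 0.0441), TMEM30A with shPcyt2-2 (0.0478) and ATP11B between the hairpins (0.0419).

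Signs changed for small values. With each library left out, the value with shPcyt2-1 ranged from -0.1715 to 0.0137 for ATG2A, and that with shPcyt2-2 from -0.0516 to 0.317 for ATP9B and from -0.04888 to 0.0342 for ABCC1. Between the hairpins the ranges were -0.0423 to 0.13 for ATP9A, -0.367 to 0.000698 for ATP9B, -0.0912 to 0.253 for TMEM30A, -0.0491 to 0.201 for ANO6 and -0.0477 to 0.08505 for ANO1. In the pooled comparison ATP8B1 ranged from -0.034 to 0.0411. Median-ratio scaling gave 0.00321 for ATP11A between the hairpins and -0.0205 for ATP8B1 in the pooled comparison. Correction for GC content and length gave -0.071 for ATP8B1 in the pooled comparison, 0.127 for ATG2A with shPcyt2-1, and 0.0417 for ABCC1 with shPcyt2-2. A group of 2 libraries limits every value, and depth in reads is unknown.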
